A study of Drosophila melanogaster with 8 samples.

Results

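The cadherin genes described here are shg, CadN, Cad74A, Cad86C, Cad87A, Cad88C, Cad89D, Cad96Ca, Cad96Cb and Cad99C, 10 of the 15127 genes in the deposited table. They were chosen by gene name and matched by the symbol in the table. The set was proposed with results of the sev14 against control contrast known, so the values of that contrast place each gene among all genes and are given as description. All 10 passed the filter on low values, a mean normalized count of 5 or more across 8 libraries, which 10192 genes passed in all. A further 6 genes of the cadherin superfamily, CadN2, ft, ds, kug, stan and Cals, were read beside them.

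The tissue was the retina of female Drosophila melanogaster pupae, dissected 40 h after puparium formation. The mutant stock carried sev[14], an allele of sevenless, on a chromosome with an unspecified w allele and is written sev14. The control stock was w[1118]. Each gave 4 libraries of polyadenylated RNA from pooled retinas, named S1, S2, S4 and S5 for sev14 and W1, W2, W5 and W6 for control after the numbers in the column names. Whether libraries of a genotype had separate sources is not in the labels. A p-value thus sets a difference only against the spread of these libraries, and that spread may be technical. An effect of sev cannot be told apart from any other difference between the stocks. In pooled tissue, fewer cells of a type and less RNA per cell cannot be told apart either.

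Cadherins are transmembrane proteins whose extracellular cadherin repeats bind calcium and join neighbouring cells. Classical cadherins such as E-cadherin and N-cadherin hold adherens junctions together through catenins, while other family members act in planar polarity, in microvilli or as receptor tyrosine kinases. In the pupal eye, E-cadherin lies at the contacts of all epithelial cells, and N-cadherin at the contacts between cone cells and on photoreceptor axons. The receptor tyrosine kinase Sevenless is needed by the R7 precursor to become a photoreceptor, and without it that cell develops as a cone cell.

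Libraries held 13755813 to 19317307 recovered reads, and the share from ribosomal RNA pseudogenes was 12.5% in S2, 10.1% in S5 and 0.528% to 3.67% elsewhere. The sev transcript stood at 202, 416, 119 and 358 normalized counts in S1, S2, S4 and S5, against 222, 338, 350 and 283 in W1, W2, W5 and W6. Those groups overlapped (exact permutation p = 0.6286, 2-sided, 70 arrangements). Levels of w, the eye pigment transporter gene, were 4506 to 7153 in sev14 and 5.60 to 14.4 in control retinas. Of 9 retina markers all 9 were detected in each library, and their levels summed to 38840 to 60320 in sev14 and 34270 to 44440 in control libraries. Over all genes, limma placed 243 higher and 186 lower in sev14 at an adjusted p under 0.05. Glia markers differed too, in both directions. In limma wrapper and Mdr65, 2 of the 8, fell (log2 differences of -0.76 and -0.69, limma adjusted p of 0.0146 and 0.0425). DESeq2 called 4, with wrapper, Mdr65 and repo lower and nrv2 higher (limma log2 difference 0.53, DESeq2 adjusted p = 0.00721). All sev14 libraries were below all controls for 3 of the 8 and above them for 1. Over all tested genes these arrangements were seen in 5.18% and 5.92%. Levels of the 8 summed to 18010 to 20490 in sev14 and 19170 to 23360 in control libraries, and none was at 0. Without W5 wrapper was not called (limma adjusted p = 0.0512), and Mdr65 was not called when any library but W2 was left out (0.0582 to 0.117). Their part in the cadherin differences was not tested. With scaling by total reads the median log2 difference of all genes moved to -0.14, and 177 were higher and 268 lower.

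Among the listed cadherins Cad88C, Cad99C and Cad86C were higher in sev14 than in control retinas. Cad88C was 9.24-fold higher, Cad99C 1.67-fold and Cad86C 1.56-fold, on the scale of log2(normalized count + 1), which understates the change of low genes. Thus 3 of 10 members rose and 0 fell in limma with Benjamini-Hochberg adjustment over all genes, 4 members being at an unadjusted p under 0.05. Over all tested genes 2.38% were called higher, 1.82% lower and 4.21% in either direction, and 16.7% were at an unadjusted p under 0.05. edgeR called 2 members higher, against 2.24% of all genes higher and 3.77% in either direction, and DESeq2 called 3, against 4.94% higher and 8.31% in either direction. The authors' deposited table has 3 members higher at an adjusted p under 0.05, against 4.03% of all genes higher and 2.75% lower. The same 3 members were the only ones of the 10 whose sev14 libraries all lay above all control libraries, an arrangement seen in 5.92% of tested genes. The median log2 difference was 0.07 over the members, against 0.0042 over all tested genes. Shotgun, N-cadherin and the other 5 members did not pass the test.

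**Figure D1:**
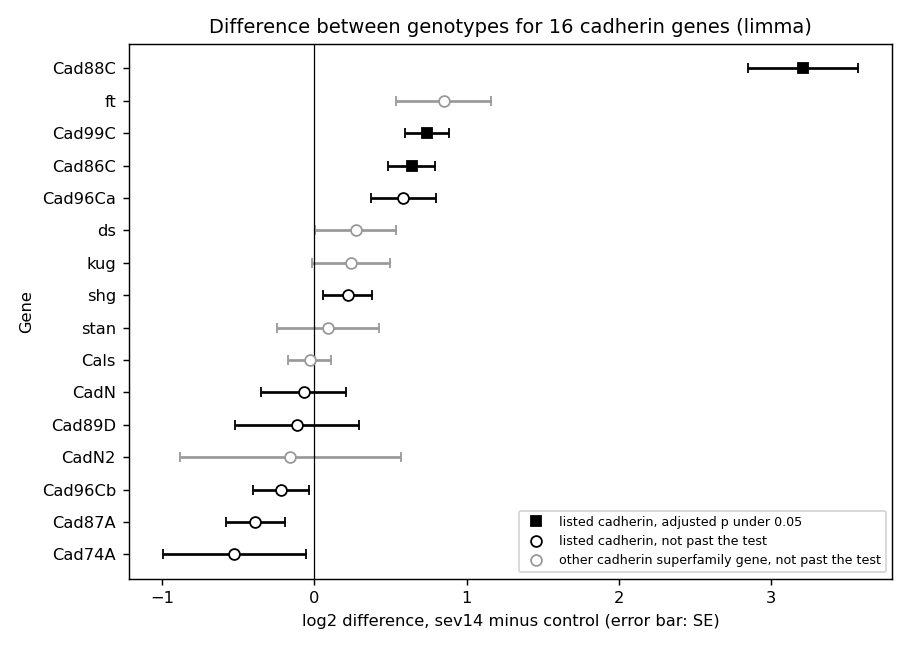
Log2 difference, sev14 minus control, for 16 cadherin genes from limma over 8 libraries, with bars of 1 SE. Filled squares mark Cad88C at 3.21, Cad99C at 0.74 and Cad86C at 0.64, the 3 genes past an adjusted p of 0.05; open circles mark the rest.

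**Figure D2:**
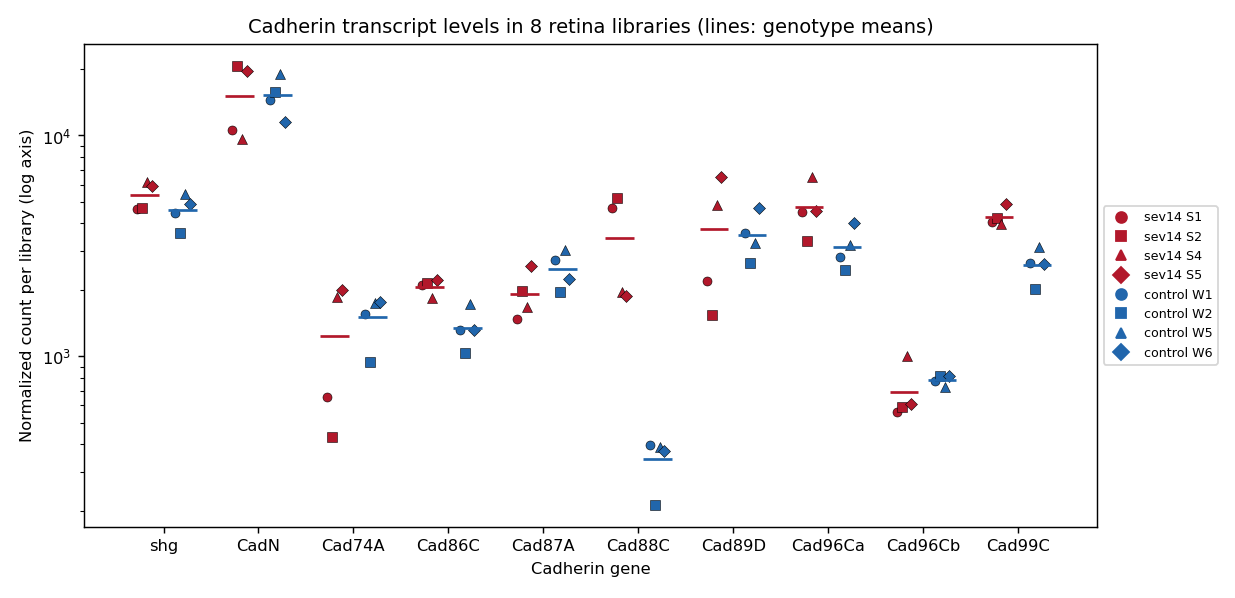
Normalized count of each listed cadherin in each library on a log axis, sev14 in red to the left of control in blue, with a line at each genotype mean. Cad88C in the sev14 libraries lies at 1883 to 5201, above the control libraries at 213 to 396, while for CadN the genotypes overlap.

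Cad88C (FBgn0038247, 3R 14630478 to 14641776 on the plus strand, BDGP6) had the largest difference of the members. Its level was 4683, 5201, 1967 and 1883 normalized counts in S1, S2, S4 and S5, against 396, 213, 388 and 374 in W1, W2, W5 and W6. Every sev14 library was above every control library, and S1 and S2 were higher than S4 and S5, with the highest 2.76 times the lowest. Means were 3433 ± 1755 in sev14 and 342.6 ± 86.9 in control (SD, n = 4 each), a log2 difference of 3.21 (SE 0.36, limma adjusted p = 0.000828). The lowest value, in W2, rested on 212 reads. When each library was left out in turn the difference lay between 2.96 and 3.45. The authors' deposited table gives a log2 fold change of 3.33 for Cad88C (adjusted p = 1.99e-10). Of the 243 genes that rose, 58 had a larger log2 difference than Cad88C. Of the 151 whose control mean was 100 or more, 4 had a larger one.

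The genes close to Cad88C had much smaller differences. The 7 tested genes within 20 kb had log2 differences from -0.65 for CG14853 to 0.26 for CG3505, with adjusted p from 0.549 to 0.976. The gene CG7886, which overlaps Cad88C on the opposite strand, averaged 6.50 normalized counts in sev14 and 2.66 in control retinas. The sources used here do not give the strand setting of the counting, so reads of such overlapping genes cannot be told apart.

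Markers of trachea and fat body were also high in S1 and S2, the libraries with the most Cad88C. For the 6 trachea markers, all detected, the mean log2 deviation from the 8-library mean was 1.59, 1.44, 0.73 and -0.59 in S1, S2, S4 and S5, against -0.88, -1.07, -0.16 and -1.06 in W1, W2, W5 and W6. Their levels summed to 12120 to 19870 in sev14 and 4716 to 12550 in control libraries, and 1 of them, dys (dysfusion), was at 0 in S5 and W6. For btl, the tracheal FGF receptor gene, levels were 144, 156, 67.9 and 20.0 in S1, S2, S4 and S5, against 8.85, 20.1, 31.4 and 27.7 in W1, W2, W5 and W6. In S5, btl and 4 other markers of the 6 were within the control range, while uif, at 15098, was above its control range of 3564 to 10209. The summed level of the list in S5 was 17702, above the controls, and 15098 of it came from uif. Limma called 0 of the 6 markers, with 4 at an unadjusted p under 0.05, edgeR called 2 and DESeq2 3, and those with the smallest p were verm and serp, both chitin deacetylase genes, each with a log2 difference of 1.61 (limma adjusted p of 0.0557 for verm and 0.0608 for serp).

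For the 7 fat body markers, all detected, the mean log2 deviation was 1.16, 0.69, -0.26 and 0.36 in S1, S2, S4 and S5, against -0.26, 0.16, -0.75 and -1.10 in W1, W2, W5 and W6. Their levels summed to 26070 to 76170 in sev14 and 18340 to 46090 in control libraries, and none was at 0. Limma called 1 of the 7 higher, with 4 at an unadjusted p under 0.05, edgeR called 1 and DESeq2 3. The log2 difference was positive for 6 and negative for 1, Fbp1, at -0.10. Lsp1alpha, which encodes a larval serum protein made by the fat body, was the 1 marker of the list that rose in limma. It had 1491, 1448, 919 and 912 normalized counts in S1, S2, S4 and S5, against 291, 407, 165 and 144 in W1, W2, W5 and W6 (log2 difference 2.33, limma adjusted p = 0.00299). As for Cad88C, its sev14 libraries were all above the controls, with S1 and S2 above S4 and S5. All sev14 libraries were above all controls for 2 of the 7 markers and for 5.92% of tested genes. All 7 fat body markers, and 5 of the 6 trachea markers, were lower in both S4 and S5 than in both S1 and S2. So were 5 of 7 muscle markers, 6 of 11 of optic lobe and brain neurons, 2 of 6 of haemocytes and 1 of 8 of glia. The share of all genes with that split was not computed. Without S1 and S2, an alternative added after seeing the data, the log2 difference was 2.53 for Cad88C (SE 0.26, limma adjusted p = 0.00237) and 1.99 for Lsp1alpha (limma adjusted p = 0.0417). The part of tracheal or fat body RNA in the Cad88C difference was not tested.

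Cad99C (FBgn0039709, 3R 29841657 to 29854699), the relative of mammalian protocadherin 15 that was studied in the microvilli of ovarian follicle cells, was the second member to rise. It had 4069, 4245, 3994 and 4874 normalized counts in S1, S2, S4 and S5, against 2635, 2018, 3123 and 2613 in W1, W2, W5 and W6. The 4 sev14 libraries lay close together, within 1.22-fold, and all were above the controls. Means were 4295 ± 400 in sev14 and 2597 ± 452 in control (SD, n = 4 each), with a log2 difference of 0.74 (SE 0.15, limma adjusted p = 0.0199). Without S5, W1 or W6 the limma adjusted p was 0.0540, 0.0563 or 0.0515 in turn, and without S1 and S2 it was 0.0887.

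The microvillus list held 3 genes that act with protocadherin 15 or in microvilli, ck, Sans and Moe. In limma 0 of 3 rose and 0 fell, with 1 at an unadjusted p under 0.05, and edgeR and DESeq2 called 0 each. Sans, a scaffold protein gene, averaged 883 ± 161 normalized counts in sev14 and 665 ± 84.0 in control (SD, n = 4 each, log2 difference 0.40, limma adjusted p = 0.228). For ck, which encodes myosin VIIA, the log2 difference was 0.27 (limma adjusted p = 0.585). Their median log2 difference was 0.27.

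Cad86C (FBgn0261053, 3R 10827079 to 10849030), known as a gene induced by Hedgehog and Dpp in the morphogenetic furrow of the larval eye disc, had 2096, 2145, 1830 and 2217 normalized counts in S1, S2, S4 and S5. It had 1316, 1042, 1721 and 1316 in W1, W2, W5 and W6. The lowest sev14 library, S4, was just above the highest control library, W5. Means were 2072 ± 169 in sev14 and 1349 ± 280 in control (SD, n = 4 each), a log2 difference of 0.64 (SE 0.15, limma adjusted p = 0.0486). This call stood at the edge of the threshold. With the block by column number, which drops W6 and S4, the limma adjusted p was 0.0780, with TMM scaling 0.0530, with scaling by total reads 0.0923, and in edgeR 0.0661. Without any of S1, S2, S5, W1, W2 or W6 it was 0.0913 to 0.125, and with a trend on transcript length removed it was 0.0683. In DESeq2 it was 0.00896, and the authors' deposited table gives an adjusted p of 0.00303. Of 9 tested genes within 20 kb of Cad86C, 1 was called, CG14694, which fell by 1.322 on the log2 scale (39.7 normalized counts in sev14 and 98.0 in control retinas, limma adjusted p = 0.0448). That call was lost when any library but S1 was left out (0.0616 to 0.124), in edgeR (0.0692) and with the block by column number (0.133).

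Cad96Ca (FBgn0022800, 3R 25197571 to 25208283) encodes Stitcher, a receptor tyrosine kinase with cadherin repeats that acts in epidermal wound repair. Its level was 4507, 3341, 6503 and 4567 normalized counts in S1, S2, S4 and S5, against 2816, 2457, 3183 and 4012 in W1, W2, W5 and W6. The library S2 fell within the control range and the other 3 sev14 libraries were above it. Means were 4729 ± 1310 in sev14 and 3117 ± 666 in control (SD, n = 4 each), and the log2 difference of 0.58 (SE 0.21) did not pass the test (limma adjusted p = 0.186). Its neighbour Cad96Cb (FBgn0039294, 3R 25224156 to 25232321) lies 15873 bp away on the same strand. Cad96Cb had 559, 591, 1002 and 609 normalized counts in S1, S2, S4 and S5, against 771, 819, 727 and 812 in W1, W2, W5 and W6. The sev14 library S4 was above all controls and the other 3 below them, with a log2 difference of -0.22 (SE 0.18, limma adjusted p = 0.633). In S4 both neighbours had their highest level of the 8 libraries.

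The E-cadherin gene shg (FBgn0003391, 2R 21049654 to 21057197) varied little. It had 4639, 4675, 6190 and 5917 normalized counts in S1, S2, S4 and S5, against 4467, 3636, 5444 and 4899 in W1, W2, W5 and W6. The groups overlapped, and the highest library was 1.70 times the lowest. Means were 5355 ± 814 in sev14 and 4612 ± 763 in control (SD, n = 4 each), with a log2 difference of 0.22 (SE 0.16, limma adjusted p = 0.579). The profiles nearest to that of shg over the 8 libraries, among 7743 genes whose mean was 100 or more, were those of rb, Eip63E and tud. They encode a subunit of the AP-3 adaptor, a cyclin-dependent kinase and the Tudor protein. Their root mean square distances from shg were 0.042, 0.045 and 0.059 on the log2 scale, against a median of 0.329 over the genes searched.

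Partners of E-cadherin at the adherens junction did not pass the limma test. Of 9 tested genes of the complex, limma called 0 higher and 0 lower, with 2 at an unadjusted p under 0.05, edgeR called 0 and DESeq2 1, and their median log2 difference was 0.05. Vinc, the vinculin gene, had 1382, 1288, 1685 and 1694 normalized counts in S1, S2, S4 and S5, against 2399, 1710, 2072 and 2458 in W1, W2, W5 and W6. Its sev14 libraries were all below the control libraries, an arrangement seen in 5.18% of tested genes. The log2 difference of -0.51 had an adjusted p of 0.104 in limma and 0.0397 in DESeq2. For baz, the Par-3 gene, means were 3242 ± 765 in sev14 and 2011 ± 551 in control (SD, n = 4 each, log2 difference 0.70, limma adjusted p = 0.130, DESeq2 0.0543). The authors' deposited table gives an adjusted p of 0.0206 for Vinc and 0.0237 for baz. The gene arm, which encodes beta-catenin, stood at a log2 difference of -0.02 (limma adjusted p = 0.975), and was named after its value was seen. Of 8 tested genes of E-cadherin endocytosis and exocyst delivery, limma called 0 in either direction, with 0 at an unadjusted p under 0.05 and 0 in edgeR and DESeq2. The smallest p values there were those of Sec5, an exocyst subunit, and Hakai, a ubiquitin ligase of E-cadherin, with log2 differences of -0.18 and -0.17 (limma adjusted p of 0.614 and 0.665). The median log2 difference of those 8 was -0.06.

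CadN (FBgn0015609, 2L 17647053 to 17778340), the N-cadherin gene, had the highest count of the members. Its level was 10562, 20645, 9624 and 19532 normalized counts in S1, S2, S4 and S5, against 14549, 15735, 18979 and 11478 in W1, W2, W5 and W6. The 2 highest and the 2 lowest of the 8 libraries were all sev14 libraries, S2 and S5 at the top and S1 and S4 at the bottom. Means were 15090 ± 5801 in sev14 and 15190 ± 3101 in control (SD, n = 4 each), with a log2 difference of -0.07 (SE 0.28, limma adjusted p = 0.946).

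The spread of CadN over libraries followed that of other long transcripts. CadN has a longest annotated transcript of 13384 bp, in the class over 12 kb, which held 84 genes whose mean normalized count was 100 or more. The median log2 deviation of that class was -0.17, 0.77, -0.68 and 0.50 in S1, S2, S4 and S5, against -0.07, -0.15, 0.31 and -0.55 in W1, W2, W5 and W6. CadN deviated by -0.47, 0.50, -0.60 and 0.42 in S1, S2, S4 and S5, against -0.003, 0.11, 0.38 and -0.35 in W1, W2, W5 and W6. The sign was thus the same in every library but W2. Not every cadherin gene of this length followed the class. With a transcript of 12427 bp, ds deviated by 0.24 in S4. With one of 16852 bp, ft deviated by -0.65 and -0.89 in W1 and W2. In the 2634 genes with transcripts of 2 to 4 kb the medians stayed between -0.05 and 0.08.

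With a smooth trend on transcript length removed from each library, an alternative chosen after seeing the data, CadN stood at 12326, 12845, 14262 and 14262 in S1, S2, S4 and S5, against 14591, 16886, 16066 and 15816 in W1, W2, W5 and W6. The highest sev14 library was then 1.16 times the lowest, against 2.15 times before. This spread within sev14 also narrowed for Cad87A, Cad96Ca and Cad96Cb. It widened for the other members, from 1.334 to 1.825 times for shg and from 4.641 to 6.193 times for Cad74A. For CadN all sev14 libraries were then below all controls, where the groups had overlapped before. The share of all genes with that arrangement after the removal was not computed. The log2 difference of CadN was then -0.24 (SE 0.11) and did not pass the test (limma adjusted p = 0.274). The profiles nearest to that of CadN were those of puf, pum and Hers, at distances of 0.092, 0.095 and 0.106 against a median of 0.4955. Their longest transcripts measure 13311, 10223 and 11220 bp. The gene puf encodes a ubiquitin protease and pum an RNA-binding repressor of translation.

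**Figure D3:**
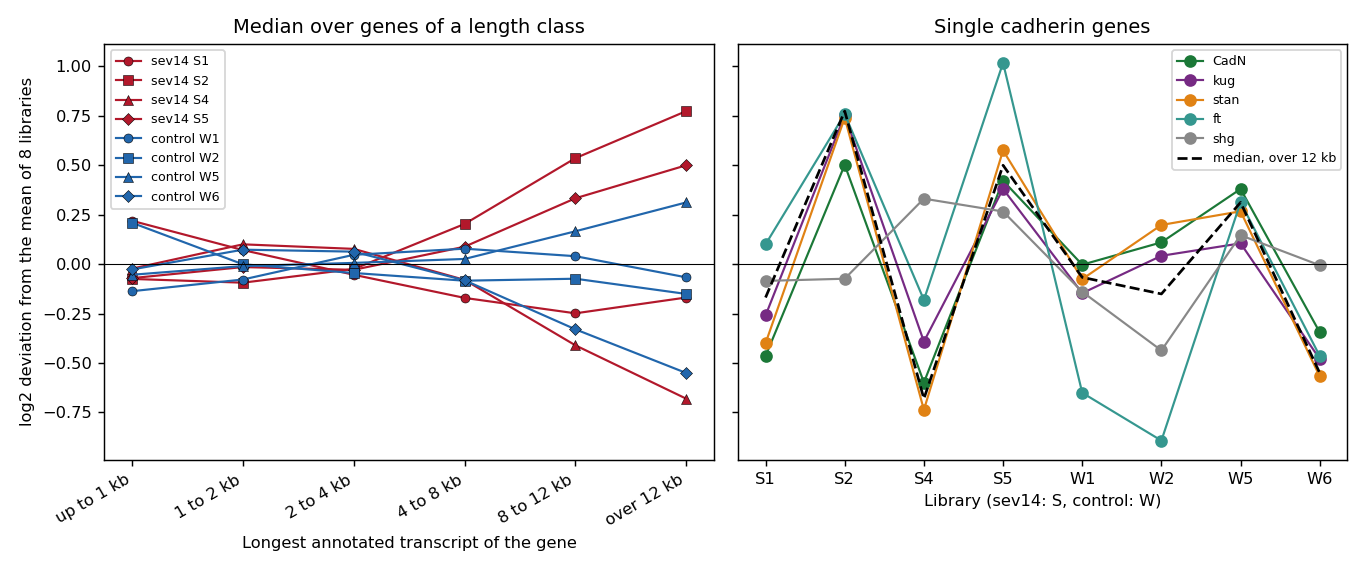
Left, median log2 deviation of each library from the mean of the 8 libraries for genes grouped by the length of their longest annotated transcript; right, the deviation of 5 cadherin genes in each library, with the median of the class over 12 kb dashed. In the class over 12 kb the sev14 libraries S2 and S5 reach 0.77 and 0.50 and S4 reaches -0.68. CadN, kug and stan lie near the dashed line while shg does not. The gene ft, also over 12 kb, lies off the line in W1 and W2, at -0.65 and -0.89 against -0.07 and -0.15.

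CadN2 (FBgn0262018), the tandem neighbour of CadN 8631 bp away on the same strand, was much lower and varied more. It had 319, 1196, 106 and 243 normalized counts in S1, S2, S4 and S5, against 795, 602, 212 and 152 in W1, W2, W5 and W6. The groups overlapped across an 11.2-fold range, with a log2 difference of -0.16 (SE 0.73, limma adjusted p = 0.953). The 11 markers of optic lobe and brain neurons were all detected, and their mean log2 deviation was 0.03, 0.95, -0.91 and -0.47 in S1, S2, S4 and S5, against 0.62, 0.86, -0.14 and -0.95 in W1, W2, W5 and W6. Their levels summed to 2036 to 7925 in sev14 and 2609 to 8105 in control libraries, and none was at 0. S2, W1 and W2 were the 3 highest libraries for both these markers and CadN2. The part of brain RNA in the level of CadN2 was not tested.

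Of 8 genes listed as partners of CadN in the targeting of R7 and R8 axons, 7 were matched and tested. In limma 0 rose and 0 fell, with 0 at an unadjusted p under 0.05 and 0 called by edgeR and DESeq2, and the median log2 difference was -0.11. Those with the smallest p were Ptp69D, a receptor tyrosine phosphatase gene, and trn, which encodes the leucine-rich repeat protein Tartan. The difference was -0.31 for Ptp69D (limma adjusted p = 0.369) and 0.31 for trn (limma adjusted p = 0.388).

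Cad74A and Cad89D fell into a common pattern within sev14. Cad74A (FBgn0036715, 3L 17367753 to 17379530), a cadherin gene studied in ovarian follicle cells, had 652, 432, 1863 and 2007 normalized counts in S1, S2, S4 and S5, against 1553, 945, 1740 and 1772 in W1, W2, W5 and W6. Cad89D (FBgn0038439, 3R 16484566 to 16495422) had 2202, 1546, 4869 and 6518 in S1, S2, S4 and S5, against 3637, 2648, 3266 and 4697 in W1, W2, W5 and W6. For both genes S1 and S2 were the 2 lowest of all 8 libraries and S4 and S5 the 2 highest. The highest sev14 library was 4.64 times the lowest for Cad74A and 4.21 times for Cad89D, against 1.88 and 1.77 times among control libraries.

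Neither passed the test, with log2 differences of -0.52 for Cad74A (SE 0.47, limma adjusted p = 0.661) and -0.11 for Cad89D (SE 0.41, limma adjusted p = 0.941). Both differences turned when S1 and S2 were left out, to 0.41 for Cad74A and 0.69 for Cad89D (limma adjusted p of 0.488 and 0.204), and that of Cad89D also in edgeR, at 0.08, and in DESeq2, at 0.09. Of the 9 retina markers 6 also had S4 and S5 both above S1 and S2, and for the other 3, pros, ct and elav, the pairs overlapped. Among the 6 were lz and eya, named after their values were seen. Of other lists, 2 of 8 glia markers and 1 of 7 muscle markers had S4 and S5 both above S1 and S2. The share of all genes with that split was not computed. The transcription factor gene lz had 1143, 1075, 2032 and 2066 normalized counts in S1, S2, S4 and S5, against 1420, 1309, 1636 and 1722 in W1, W2, W5 and W6. For eya, a retinal determination gene, levels were 5957, 5077, 11242 and 9899 in S1, S2, S4 and S5, against 6054, 5202, 8030 and 9445 in W1, W2, W5 and W6. By contrast, pros had 4444, 6875, 1347 and 4447 normalized counts in S1, S2, S4 and S5, against 4597, 4064, 3928 and 1644 in W1, W2, W5 and W6. The summed level of the 9 markers was lower in S1 and S2, at 38844 and 45131, than in S4 and S5, at 60315 and 52920. Of that sum chp, named after its value was seen, gave 16397, 15309, 34176 and 20664 in S1, S2, S4 and S5. The mean log2 deviation of the 9 was -0.184, -0.046, 0.028 and 0.323 in S1, S2, S4 and S5. In W1, W2, W5 and W6 it was 0.035, -0.165, 0.058 and -0.048. The part of these cells in the levels of Cad74A and Cad89D was not tested.

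Cad87A (FBgn0037963, 3R 11893512 to 11949129) had 1471, 1970, 1668 and 2554 normalized counts in S1, S2, S4 and S5, against 2731, 1954, 3026 and 2243 in W1, W2, W5 and W6. S1 and S4 were below all controls, and no sev14 library was above all of them. Means were 1916 ± 473 in sev14 and 2489 ± 481 in control (SD, n = 4 each), with a log2 difference of -0.39 (SE 0.20, limma adjusted p = 0.362).

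**Figure D4:**
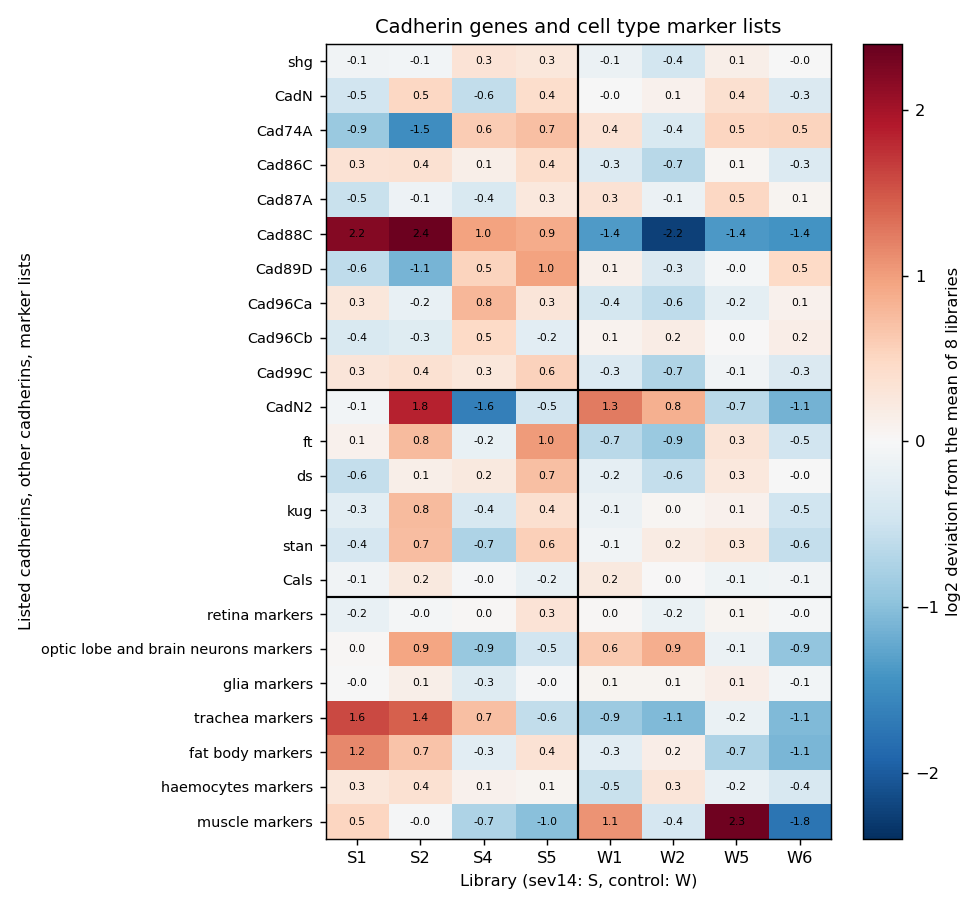
Log2 deviation of each library from the mean of the 8 libraries for 16 cadherin genes and, as a mean over each list, for 7 lists of cell type markers, sev14 libraries left and control libraries right. Cad88C runs from 2.4 in S2 to -2.2 in W2, and Cad74A and Cad89D are low in S1 and S2 and high in S4 and S5.

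The giant cadherins that were read beside the members did not pass the test. Of the 6 other superfamily genes limma called 0 higher and 0 lower, with 1 at an unadjusted p under 0.05, and edgeR and DESeq2 called 0 each; their median log2 difference was 0.16. The gene with that p was ft, which encodes Fat, the receptor that restrains growth through the Hippo pathway and orients planar polarity. It had 3537, 5584, 2909 and 6681 normalized counts in S1, S2, S4 and S5, against 2100, 1776, 4097 and 2390 in W1, W2, W5 and W6. W5 was within the sev14 range and the other 3 controls were below it. The log2 difference of 0.85 (SE 0.31) had a limma adjusted p of 0.187. With the block by column number, which drops W6 and S4, it was 1.04 (limma adjusted p = 0.0404), and without S2 and S5 it was 0.38 (limma adjusted p = 0.614).

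For ds, which encodes Dachsous, the ligand of Fat, levels were 2327, 3798, 4059 and 5719 in S1, S2, S4 and S5, against 2962, 2313, 4106 and 3433 in W1, W2, W5 and W6 (log2 difference 0.27, limma adjusted p = 0.696). Downstream of Fat, d encodes the unconventional myosin Dachs, and it had 4073, 3513, 4046 and 4959 in S1, S2, S4 and S5, against 2897, 2280, 3071 and 2956 in W1, W2, W5 and W6. Its sev14 libraries were all above the controls, an arrangement seen in 5.92% of tested genes and in 1 of the 10 of this pathway. The log2 difference of d was 0.56 (SE 0.14), just short of the threshold in limma (adjusted p = 0.0590). It was past the threshold in DESeq2 (adjusted p = 0.00812), or in limma without S2 (adjusted p = 0.0446). Over the 10 tested genes of the Fat and Dachsous pathway, limma called 0 higher and 0 lower, with 2 at an unadjusted p under 0.05, edgeR called 0 and DESeq2 1, and the median log2 difference was 0.24.

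The seven-pass cadherin gene stan, or Flamingo, acts in planar polarity and in photoreceptor axon targeting. It had 4980, 10973, 3940 and 9786 normalized counts in S1, S2, S4 and S5, against 6230, 7537, 7907 and 4432 in W1, W2, W5 and W6. Like CadN it was highest in S2 and S5 and lowest in S4, and its log2 difference was 0.09 (SE 0.33, limma adjusted p = 0.942), or -0.05 with scaling by total reads. The gene kug, which encodes Fat2, was also highest in S2 and S5, at 10881 and 8406, with 5394 in S1 and 4920 in S4, against 5833, 6647, 6948 and 4629 in W1, W2, W5 and W6 (log2 difference 0.24, limma adjusted p = 0.727). Their longest transcripts measure 12963 bp for stan and 14407 bp for kug. Cals, the calsyntenin gene, was the steadiest of the 16, at 6718 to 8957 in sev14 and 7126 to 9017 in control retinas (log2 difference -0.03, limma adjusted p = 0.952). Of 6 tested genes of the planar polarity core, limma called 0 in either direction, with 1 at an unadjusted p under 0.05, edgeR called 0 and DESeq2 1. The 2 with the smallest p were dgo, which encodes Diego, at 0.62 (limma adjusted p = 0.1097, DESeq2 0.0421, limma without S2 0.0440), and pk, the prickle gene, at 0.23 (limma adjusted p = 0.609). The median log2 difference was 0.11.

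Levels were compared between genes per kb of the union of their annotated exons. Per kb, Cad96Ca stood at 1609 ± 446 normalized counts per kb in sev14 and 1061 ± 227 in control (SD, n = 4 each). CadN stood at 1048 ± 403 in sev14 and 1055 ± 215 in control. Cad96Ca was above CadN in 3 of 4 sev14 libraries and in 1 of 4 control libraries, and per kb of the longest transcript the control means were 1061 for Cad96Ca and 1135 for CadN, so these genes had no set order in control. Next came shg at 837 ± 127 in sev14 and 721 ± 119 in control. Over all tested genes, 91.7% had a lower level per kb than Cad96Ca, 89.1% than CadN and 84.9% than shg. In control retinas the order went on with Cad89D, Cad99C, Cad87A, Cad96Cb, Cad74A and Cad86C, and Cad88C was last at 50.8 ± 12.9. In that order the ranges of neighbours overlapped, apart from Cad86C and Cad88C. In sev14 retinas Cad88C was the sixth gene of the order, at 509 ± 260, after Cad99C at 741 ± 68.9 and Cad89D at 547 ± 336, and the ranges of all 9 neighbouring pairs overlapped.

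**Figure D5:**
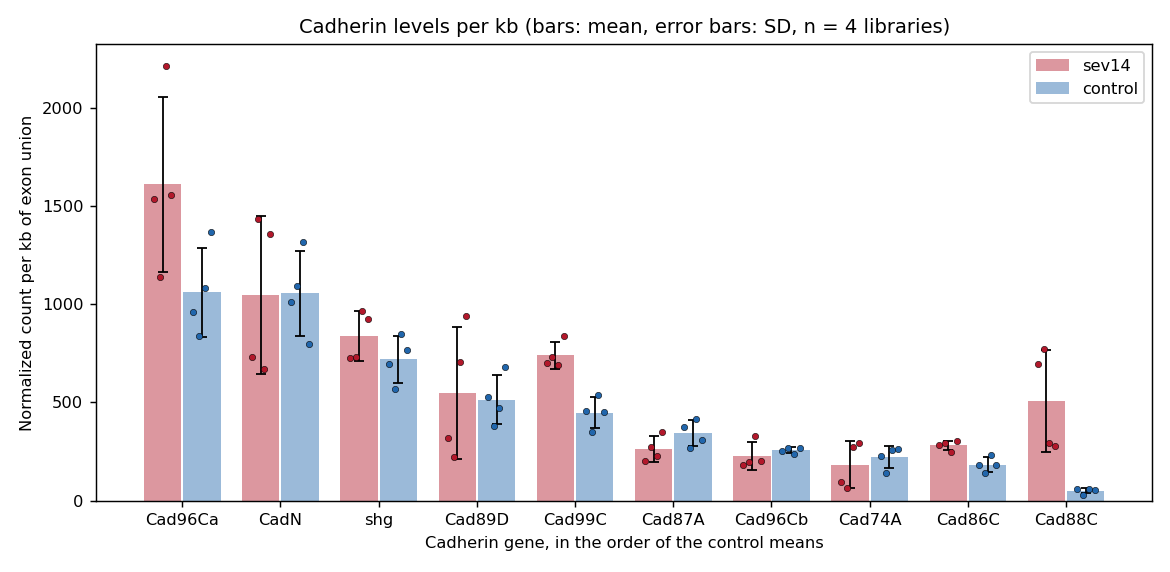
Normalized count per kb of exon union for the listed cadherins in the order of the control means, sev14 left of control, with bars at the mean, error bars of 1 SD and a point for each of 4 libraries. Cad96Ca stands at 1609 in sev14 and 1061 in control retinas, and Cad88C at 509 in sev14 and 50.8 in control retinas.

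The 10 genes summed to 5476, 5851, 6618 and 7049 normalized counts per kb in S1, S2, S4 and S5, against 4745, 4081, 5469 and 5131 in W1, W2, W5 and W6. The difference between the mean sums was 1392. It was the balance of higher means for Cad96Ca by 549, Cad88C by 458, Cad99C by 293, shg by 116, Cad86C by 98.8 and Cad89D by 32.0, and of lower ones, with -79.0 for Cad87A, -39.0 for Cad74A, -30.4 for Cad96Cb and -6.56 for CadN. As a share of the sum, Cad88C took 8.56% ± 5.06 in sev14 and 1.04% ± 0.19 in control (SD, n = 4 each), with 12.7% and 13.2% in S1 and S2 and 4.41% and 3.96% in S4 and S5. Cad99C took 10.4% to 12.8% in sev14 and 8.53% to 9.84% in control libraries. The share of Cad87A was 3.473% to 4.995% in sev14 and 6.02% to 7.93% in control libraries, so its groups, which overlapped in level, did not overlap in share. CadN took 16.8% ± 6.37 in sev14 and 21.9% ± 4.82 in control, and shg 13.4% ± 0.90 in sev14 and 14.8% ± 0.67 in control (SD, n = 4 each). The shares in 1 library sum to a whole, so they do not vary independently. Besides Cad88C, Cad96Ca had a higher mean share, 25.7% in sev14 and 21.8% in control. Their part in the lower share of Cad87A was not tested.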

How the data were processed

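Paired-end MiSeq reads were taken from polyadenylated RNA of 8 libraries, per the labels' protocols. Per the submitters' processing notes the builds were dm6 and BDGP6, and the tools named were HISAT2 2.0.3, RSEM 1.2.31, DESeq2 1.32.0, cutadapt 1.9.1 and FastQC 0.11.4. In the deposited table is a signal per gene and library, normalized counts made by the authors, which by their values are gene counts divided by 1 factor for each library. Between 99.99% and 100.0% of the values above 0 in a library lay within 0.05 reads of a whole number of reads, the largest deviation being 0.054, so reads were recovered and totalled 13755813 to 19317307. The authors' deposited log2 fold change and adjusted p-value were printed for comparison only, and their deposited score was not used. Columns were assigned to genotypes by the letters of their names. Symbols of 5 genes stood as dates and were restored by identifier.

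The filter kept a mean of 5 or more. The test was limma 3.58.1 (R 4.3.3), 2-sided with an intensity trend, of log2(normalized count + 1) over all 8 libraries, with Benjamini-Hochberg adjustment at 0.05 over all tested genes. Alternatives were TMM scaling, total reads, pseudocounts of 0.5 and 5, no filter, a filter of 20, the recovered reads in DESeq2 1.42.0 or edgeR 4.0.16, array weights, leaving out libraries, and a block by column number. Leaving out S1 and S2, and removing a lowess trend on transcript length (span 0.3, genes whose mean was 100 or more), were added after seeing the data. Column numbers 1, 2 and 5 occur in both genotypes but are not the replicate numbers of the titles. Deviations from the group means correlated at 0.112, 0.233 and 0.111 between libraries of the same number. These values do not set the numbers apart as pairs. S1 correlated more with W2 (0.159), S2 stood at 0.215 with W1, and S4 at 0.529 with W6. The numbers were treated as pairs only in the block by column number. Between libraries of the same genotype the chi-square per degree of freedom was 48.01 to 440.8, so none was a repeat sequencing of another. Separate preparations from the same RNA can also differ this way, so the values do not show separate sources.

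Lengths came from the Ensembl BDGP6 annotation, where 14898 of 15127 gene identifiers were found, 98.6% of them with the same coordinates. Of 114 list entries 113 were matched, and the other was not analysed here. All 10 members and the 6 other superfamily genes are named, up to 4 called genes of each other pathway list or else the 2 with the smallest p, and 3 nearest profiles for shg and CadN. Marker genes are named as called, as smallest in p, or after their values were seen. The members and lists were chosen with earlier results of these data known. Python 3.11.15 read the table and drew the figures.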

Additional observations from a re-analysis of the deposited data

Results flagged for a closer look

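In 32 groups of 4 libraries, 1 library was examined against the other 3 for each cadherin gene and genotype, and chance marks about 1 in 20 such groups. Cad88C in control library W2, at 213.0 normalized counts, was far below the other control libraries, at 374 to 396. Cad96Cb in sev14 library S4, at 1002.26 normalized counts, was far above the other sev14 libraries, at 559 to 609, and above the control libraries, at 727 to 819.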

How the results depend on the processing

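Of the listed cadherins Cad88C was called higher under every alternative run, between 2.53 and 3.48 on the log2 scale. The number of members that rose was 1 without W6 and S4, 1 without S2 and S5 and 1 without S1 and S2, and lay between 1 and 3 when each library was left out, being 1 without S5, W1 or W6, while the number that fell stayed at 0. The genes that rose numbered 503 in DESeq2, 156 without W6 and S4, 145 without S2 and S5, 111 without S1 and S2 and 137 to 251 when each library was left out, with 137 without S1. Those that fell numbered 344 in DESeq2, 106 without W6 and S4 and 111 to 189 when each library was left out, with 111 to 120 without any of the control libraries. The replicate block by column number, fitted over S1, S2, S5, W1, W2 and W5, gave 197 that rose and 131 that fell; it ended the calls of Cad86C (0.69, limma adjusted p = 0.0780), CG14694 (-1.33, limma adjusted p = 0.133) and Mdr65 (-0.64, limma adjusted p = 0.146) and made that of ft (1.04, limma adjusted p = 0.0404). It changed no other call among the cadherins, the named pathway genes, Lsp1alpha and wrapper.

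Differences that changed sign were those of genes that did not pass the test. Leaving out each library gave -0.25 to 0.12 for CadN, -0.45 to 0.24 for Cad89D, -0.80 to 0.36 for CadN2, -0.14 to 0.35 for stan and -0.11 to 0.0425 for Cals. Without S1 and S2 the values were 0.41 for Cad74A, 0.69 for Cad89D and -0.0366 for stan. Without S2 and S5 they were -0.0287 for ds, -0.21 for kug, -0.52 for stan and 0.0134 for Hakai. In edgeR Cad89D was at 0.0752 and CadN2 at 0.0498, in DESeq2 Cad89D was at 0.087 and CadN2 at 0.0818, and with array weights CadN2 was at 0.14. For stan, scaling by total reads gave -0.0539 and the removed length trend -0.0745. The cause was not tested. Of the other values of single named genes under alternatives, 595 kept their direction and their side of the threshold, 53 kept their direction but lost the call and 6 gained one. The lowest read number behind any of the 16 genes was 130, for CadN2 in S4.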
